A study of Mus musculus with 2 samples.

Results

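Csn3 encodes kappa-casein, the milk protein that keeps casein micelles in suspension, and its RNA is already present in luminal cells of the resting mammary gland. The luminal layer of a mammary duct holds progenitors, which can give rise to the secretory alveolar cells, and mature hormone-sensing cells that carry the oestrogen and progesterone receptors. In lactation, prolactin acts through its receptor, the kinase Jak2 and the transcription factor Stat5, and together with the factor Elf5 switches on the casein, alpha-lactalbumin and whey protein genes.

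The comparison divided the cells of a luminal progenitor gate in 1 library by their Csn3 share and asked which other RNAs were higher or lower in the cells richest in Csn3. The library was a 10X Chromium capture of total mammary epithelium (lineage-negative, CD24+ cells) pooled from several untreated adult FVB/NJ mice, and every cell compared came from that pool. A cell entered the gate with 3 or more summed counts of the luminal keratins Krt8, Krt18 and Krt19, fewer than 8 of the basal genes Krt5, Krt14 and Acta2, and fewer than 5 of the mature luminal genes Prlr, Stc2 and Gpx3. The gate held 680 of the 3302 cells of the library, and the series holds 8073 cells in 2 libraries. The gated cells were ranked by Csn3 counts over the total count of the cell. The highest 25% (170 cells, Csn3-high) and the lowest 25% (170 cells, Csn3-low) were then paired on total count within 10%.

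The groups were chosen by the Csn3 share, so the levels of Csn3 are a description. It took 0.904% to 3.74% of the counts of a Csn3-high cell, with a median of 1.44%, and 0% to 0.139% of those of a Csn3-low cell, of which 85 had no Csn3 count. The Csn3-low cell nearest the boundary had 2 Csn3 counts of 1438, and the next cell outside had 3 of 2104. On the other side, the Csn3-high cell nearest the boundary had 29 of 3209 and the next cell outside had 16 of 1784. The share therefore ran on without a gap at either boundary. Summed over cells, Csn3 stood at 464, 2424, 5604 and 16763 CPM, the summed counts scaled to a total of 1000000, from the lowest to the highest 25%. In 590 basal cells of the library (8 or more counts of the basal genes, fewer than 3 of the luminal keratins) it stood at 18.9 CPM, so the Csn3-low sum was 24.6 times the basal level. These cells served as the background for milk RNAs throughout, with a median of 1554 counts per cell.

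**Figure D1:**
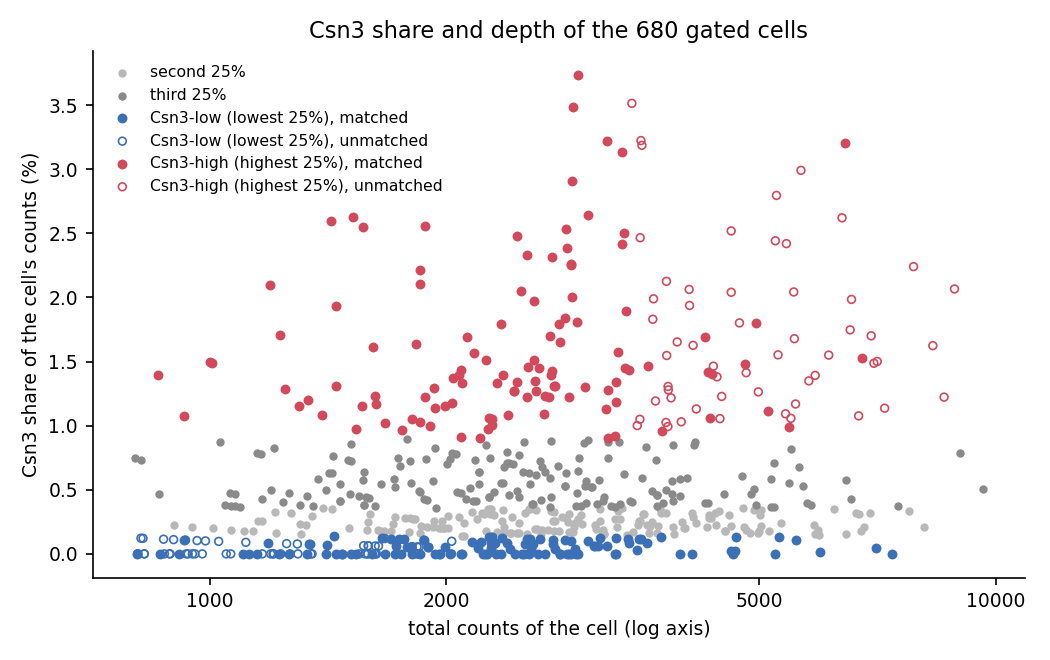
Csn3 share of a cell's counts (%) against its total count (log axis) for the 680 gated cells, 1 point a cell, coloured by group of Csn3 share, with filled points for matched cells. The unmatched Csn3-high cells lie at 3443 counts or more and the unmatched Csn3-low cells at 2032 or fewer.

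Depth moved with the ranking, which is why the groups were matched. The median total was 2936 counts in Csn3-high cells and 1843 in Csn3-low cells. Matching kept 114 pairs with median totals of 2533.5 and 2330. It left out 56 Csn3-high cells of 3443 to 8855 counts and 56 Csn3-low cells of 810 to 2032 counts, 33 of them without Csn3. Less Csn3, the matched groups summed to 290767 and 291133 counts, and all CPM below are over these sums. Both groups sit in 1 library, so there is no replicate and no test. Intervals are exact 95% intervals (Poisson for a CPM, conditional binomial for a fold) and cover counting error only, not the spread between cells or mice. A gene was called higher or lower when it passed 1.5-fold with at least 50 counts over both groups.

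The Csn3-low group was not made of progenitors alone. At least 1 count of the progenitor markers Elf5, Kit, Aldh1a3, Cd14 and Ehf was present in 112 of 114 matched Csn3-high cells (98.2%) and in 97 of 114 Csn3-low cells (85.1%), against 3.56% of the basal cells. Trf, the abundant transferrin RNA, was present in every matched Csn3-high cell, whereas 14 matched Csn3-low cells had fewer than 2 Trf counts. None of these 14 had a Csn3 count, 4 had a progenitor marker count, and 10 had 2 or more counts of the mature luminal markers Areg, Cited1, Esr1, Pgr, Ly6a and Cxcl15. A single Csn3-low cell among the other 100 reached that level. Among the 14, 1 cell with 7371 counts held 1003 counts of Acta1, 508 of Ckm and 201 of Tnnt3, which encode the actin, creatine kinase and troponin of skeletal muscle. It had no Krt8, Krt19, Trf or Csn3 and passed the gate on 5 counts of Krt18. A second Csn3-low cell also held at least 10 counts of these muscle genes, and no Csn3-high cell did.

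Each call was therefore also made under a strict progenitor gate, chosen after these cells were seen. It asked for a progenitor marker count, at most 1 basal count, no Prlr, Stc2 or Gpx3, at most 1 count of the mature luminal markers and fewer than 10 muscle counts. It left 398 cells, ranked anew, and 69 matched pairs with median totals of 2461 and 2307. Of these Csn3-low cells, 27 had no Csn3 count.

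Of 1648 genes compared, 112 (6.80%) were higher and 189 (11.5%) were lower in Csn3-high cells. The 95% interval of the fold excluded 1 for 83 of the higher and 142 of the lower genes, and 31 and 44 passed 2-fold. The median gene was lower by a small amount, at a log2 fold of -0.10. Scaling by the trimmed mean of M-values (TMM) raised every log2 fold by 0.19 and turned the balance round, to 200 higher and 107 lower genes, or 65.2% higher among the calls in place of 37.2%. The number of higher against lower genes thus rests on the scaling, and the size of single folds carries the description that follows. Under the strict gate 82 of 946 genes were higher (8.67%) and 157 were lower (16.6%). The strict gate could compare 66 of the 112 higher genes and called 51 of them higher again. It could compare 68 of the 189 lower genes and called 45 of them lower again. No gene was called in the opposite direction. The strict gate takes a part of the same gated cells, so its calls are not independent of the main ones. Among the 189 lower genes, 20 drew 50% or more of their Csn3-low counts from 1 cell. None of the 112 higher genes drew 50% of its Csn3-high counts from 1 cell.

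The other caseins were the milk genes closest to Csn3 in the genome. In the mouse genome GRCm38 (mm10), Csn3 lies at chr5:87925579-87932550. Csn1s1 (chr5:87666208-87682578, alpha-S1-casein), Csn2 (chr5:87692619-87699429, beta-casein) and Csn1s2a (chr5:87774450-87788798, an alpha-S2-like casein) lie in the same cluster, 243, 226 and 137 kb from Csn3. Csn1s2b lies 101 kb from it. The 150 bases upstream of 4 milk genes are shown because all 4 were higher in Csn3-high cells while only some carry the Stat5-type motif near the start. The sequences are from RefSeq (GRCm38.p6), 5′ to 3′ on the gene's strand, and capitals mark TTCNNNGAA, which reads the same on both strands. Upstream is counted from the RefSeq start, which for Csn2 lies a few bases inside the GENCODE gene given above and for Lalba lies further inside its GENCODE gene (chr15:98480400-98482934).

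Csn1s1, chr5:87666058-87666207, plus strand: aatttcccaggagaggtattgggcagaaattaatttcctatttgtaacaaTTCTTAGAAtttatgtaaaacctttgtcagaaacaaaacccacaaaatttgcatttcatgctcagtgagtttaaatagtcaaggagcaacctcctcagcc
Csn2, chr5:87699426-87699575, minus strand: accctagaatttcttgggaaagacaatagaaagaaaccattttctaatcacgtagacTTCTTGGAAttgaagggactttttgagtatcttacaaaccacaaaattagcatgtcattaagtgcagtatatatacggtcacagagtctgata
Csn1s2a, chr5:87774300-87774449, plus strand: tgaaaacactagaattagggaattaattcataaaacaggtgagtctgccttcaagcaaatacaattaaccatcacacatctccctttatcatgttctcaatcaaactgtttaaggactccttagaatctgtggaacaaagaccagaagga
Lalba, chr15:98482684-98482833, minus strand: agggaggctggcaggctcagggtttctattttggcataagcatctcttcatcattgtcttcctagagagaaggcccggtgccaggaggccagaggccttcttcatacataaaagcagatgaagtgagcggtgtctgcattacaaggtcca

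The motif begins 100 bases before the start of Csn1s1 and 93 bases before that of Csn2. In Csn1s2a a match begins at base 21 of the transcript and none lies upstream, and in Lalba none lies in the window searched, from 250 bases before to 50 bases after the start. Csn3 has no entry in the promoter table. Of the 32851 windows of this length, 8.30% held the motif. By gene, it was in 10 of the 83 higher genes with a window (12.05%), 13 of 151 lower genes (8.61%) and 102 of 1296 compared genes (7.87%). Of the milk protein list below, 12 genes had a window and 4 held the motif. These were Csn1s1, Csn2, Csn1s2a and Glycam1, which had no count in either matched group. The window of Spp1 held none.

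Milk protein RNAs had the highest median fold of the lists with 3 or more compared genes. Of 10 milk proteins compared, 6 were higher, beside 6.80% of all genes, and 0 were lower. Their median log2 fold was 1.04 against -0.10 for all genes. The higher genes were Csn2, Csn1s1, Csn1s2a, Lalba, Btn1a1 and Spp1, which is also counted in the secreted defence list below. Csn2 summed to 1820 counts, or 6259 CPM (5975 to 6553.6), in Csn3-high cells and to 567 counts, or 1948 CPM (1790.5 to 2115), in Csn3-low cells. That is 3.21-fold higher (2.92 to 3.54), and 6.29-fold (5.44 to 7.29) under the strict gate. Csn1s1 was 2.32-fold higher (2.08 to 2.59) at 3752 against 1618 CPM, and 2.99-fold higher under the strict gate. Csn1s2a was 1.82-fold higher (1.68 to 1.98), and 3.54-fold higher under the strict gate.

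Casein counts were unevenly spread over cells in both groups. The median Csn3-high cell held 0 counts of Csn2 and 3 summed counts of Csn2, Csn1s1 and Csn1s2a, and the largest held 1168. The median Csn3-low cell held 0 summed counts and the largest 1060. A sum of 50 or more was reached by 18 of 114 Csn3-high cells (15.8%, exact binomial interval 9.63% to 23.8%) and 7 of 114 Csn3-low cells (6.14%, 2.50% to 12.2%), and these few cells held 80.8% and 85.9% of the group's casein counts. All of the 3 caseins were present in 33 Csn3-high and 10 Csn3-low cells, and none of them in 42 and 70 cells. Among the 590 basal cells, 1 had all of them and the largest sum was 8.

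A high Csn3 share and high counts of the other caseins were therefore often found apart. The Csn3-low cell with 1060 casein counts had 371 of Csn2, 594 of Csn1s2a and 95 of Csn1s1 but 6 of Csn3 in a total of 5560. The Csn3-high cell with 1168 casein counts had 798 of Csn2 and 206 of Csn3 in a total of 6429. Leaving out, for each gene, the cell with most of its counts in each group moved the fold of Csn2 to 5.23 and that of Csn1s2a to 4.34. It left those of Csn1s1, Lalba and Btn1a1 at 2.36, 3.29 and 3.73.

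**Figure D2:**
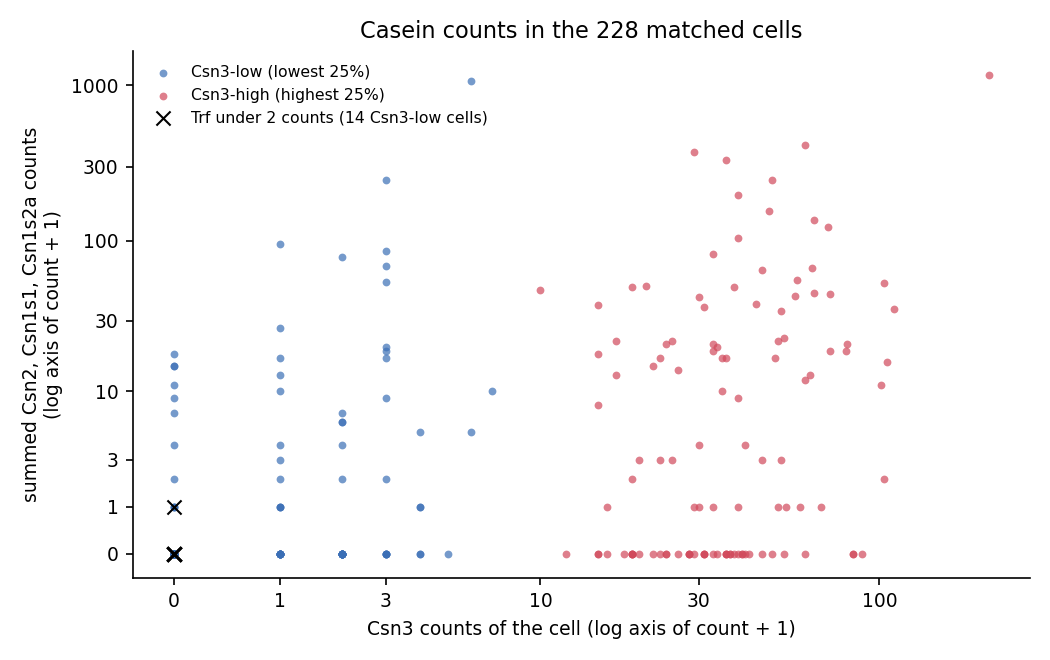
Summed Csn2, Csn1s1 and Csn1s2a counts against Csn3 counts for the 228 matched cells, both on log axes of count + 1, with crosses on the 14 Csn3-low cells that had fewer than 2 Trf counts. Of the Csn3-high cells 42 lie at 0 other casein counts, and 7 Csn3-low cells reach 50 or more.

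Lalba and Btn1a1 were more evenly spread than the caseins. Lalba, which encodes alpha-lactalbumin, the regulatory subunit of lactose synthase, stood at 2363 CPM (2189 to 2546) in Csn3-high cells and 748.8 CPM (652.7 to 855.1) in Csn3-low cells, 3.16-fold higher (2.71 to 3.69). It was present in 73.7% of Csn3-high and 34.2% of Csn3-low cells, in 59.1% and 20.9% of them after thinning every cell to 1000 counts, and in 0.548% of thinned basal cells. Thinning kept 110 cells in each matched group and 547 basal cells. Btn1a1, which encodes butyrophilin of the milk fat globule, had 204 against 55 counts, a 3.71-fold difference (2.75 to 5.10). It was present in 63.2% against 27.2% of the cells, and in 40.0% against 13.6% after thinning. Under the strict gate the folds were 3.34 for Lalba and 4.50 for Btn1a1.

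The other 4 compared milk proteins stayed within 1.5-fold. Mfge8, a milk fat globule protein that bridges dying cells to phagocytes, had 8034 against 6427 CPM, a fold of 1.25 (1.18 to 1.33). Wfdc18 had 170 against 188 counts (0.905, 0.731 to 1.12), Muc15 had 130 against 118 and Muc1 had 44 against 37. The milk proteins that were not compared had few counts. Xdh, needed for milk fat secretion, had 26 against 7 and Cel, a milk lipase, had 31 against 10. Wap, the whey acidic protein, had 9 counts against 0, and all 9 lay in the Csn3-high cell with most casein counts, so no fold is given.

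Spp1, already counted with the milk proteins, was higher, as were Trf and some of the secreted defence and acute-phase genes. Spp1, which encodes osteopontin, a secreted phosphoprotein of milk, summed to 14002 against 3836 counts. It stood at 48155 CPM (47361 to 48960) against 13176 CPM (12762 to 13600), 3.65-fold higher (3.53 to 3.79), with a median of 39.5 counts a cell against 1. It was present in 76.4% of thinned Csn3-high cells, 51.8% of Csn3-low cells and 10.97% of basal cells. Trf was the most abundant of these RNAs, with 56654 against 28798 CPM, and was 1.97-fold higher (1.92 to 2.02), with a median of 125.5 counts a cell against 60. These folds were 4.68 and 2.01 under the strict gate.

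Of 17 secreted defence and acute-phase genes compared, 6 were higher, beside 6.80% of all genes, with a median log2 fold of 0.35. The 2 lower genes were near the share of 11.5% lower over all genes. Besides Spp1 and Trf the higher genes were Hp (haptoglobin, 2.38-fold, 2.04 to 2.79), Chil1 (a chitinase-like protein, 2.37-fold, 1.997 to 2.81), Lbp (which binds bacterial lipopolysaccharide, 2.02-fold, 1.40 to 2.96) and the lysosomal protease gene Ctsc (1.54-fold, 1.07 to 2.25). Ctsc was not called under the strict gate, with a fold of 1.28 (0.826 to 2.01). Hp was present in 31.6% of Csn3-high and 28.9% of Csn3-low cells, with at most 85 counts in a cell of the former and 32 in a cell of the latter. Chil1 stood at 3207 CPM in the basal cells, above both luminal groups. The lower genes were Slpi, a protease inhibitor with 13 against 61 counts, and the complement gene C3, with 37 against 58. Slpi was present in 60.0% of the basal cells, and 1 of the 14 Csn3-low cells with fewer than 2 Trf counts held 31.1% of its Csn3-low counts. With the strict gate the list went both ways. There 6 of 16 genes were higher and 4 were lower, beside 8.67% and 16.6% of all genes.

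Ltf did not follow Trf. Ltf, which encodes lactoferrin, an antibacterial iron-binding protein, stood at 2748 against 3414 CPM (fold 0.805, 0.732 to 0.884) and had a fold of 0.527 (0.463 to 0.598) under the strict gate, past the 1.5-fold limit. Lcn2, which encodes lipocalin-2, lay on the side of Trf but was not called. It stood at 5926 against 4215 CPM (1.41-fold, 1.31 to 1.51) in all gated cells and at 1.36-fold under the strict gate. Lrg1, a secreted leucine-rich glycoprotein of the acute phase, was 2.45-fold higher (2.08 to 2.89) and present in 84.2% against 50% of the cells.

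**Figure D3:**
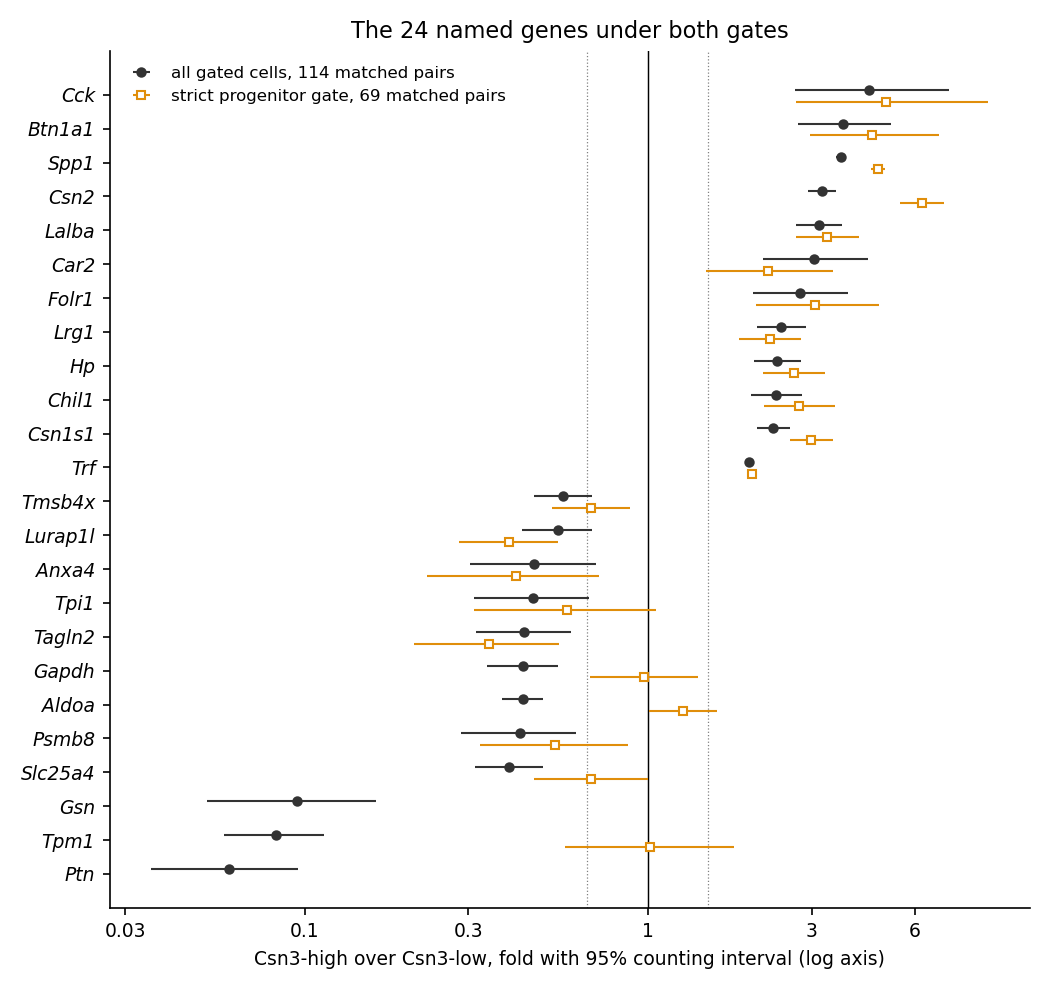
Fold of Csn3-high over Csn3-low cells (log axis) with 95% counting intervals for the 24 genes named by rule, as filled circles for the 114 matched pairs and as open squares for the 69 pairs of the strict gate (genes with at least 50 counts there), with dotted lines at 1.5-fold. The 12 higher genes keep their side under both gates, while Tpm1, Aldoa and Gapdh move to 1.01, 1.26 and 0.976.

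Progenitor genes gave a mixed picture. Of 16 compared, 6 were higher and 1 was lower, beside 6.80% and 11.5% of all genes, with a median log2 fold of 0.29. The higher genes were Folr1, a folate receptor (2.77-fold, 2.03 to 3.83, present in 62.3% against 25.4% of the cells), Hey1, a Notch target (3.004-fold, 1.87 to 4.99), Sox9 (2.54-fold, 1.56 to 4.27), Clic6 (1.99-fold, 1.46 to 2.73), Tspan8 (1.71-fold, 1.31 to 2.26) and Elf5 (1.63-fold, 1.25 to 2.14). Sox9 had 30 against 17 counts under the strict gate, too few to be compared there. Elf5 had 148 against 91 counts and was 1.45-fold (1.01 to 2.08) under the strict gate, just short of a call. The other defining markers stayed within 1.5-fold, with Cd14 at 1.19 (1.07 to 1.31), Ehf at 1.099 (0.739 to 1.64) and Aldh1a3 at 0.858 (0.509 to 1.44). Cd14 lay on the other side of 1 under the strict gate, at 0.845 (0.750 to 0.952). Kit had 15 against 18 counts and was not compared. The lower gene was Cd24a, with 152 against 239 counts. It had a fold of 0.709 and was not called under the strict gate. There 4 of 11 progenitor genes were higher, beside 8.67% of all genes, and 0 were lower. That gate requires a count of Elf5, Kit, Aldh1a3, Cd14 or Ehf in every cell. Its values for these genes and for the list therefore depend in part on the gate itself.

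Of the prolactin pathway only 5 of 16 genes had enough counts. Elf5 and Socs3, a feedback inhibitor of cytokine signalling, were higher, the latter with 133 against 77 counts (1.73-fold, 1.30 to 2.32). Socs3 stood at 4618 CPM in the basal cells, and without matching its fold was 0.685. Stat3, Jak1 and Pim1 had folds of 0.875, 0.845 and 1.001. Stat5a had 14 against 12 counts, Cish 17 against 17 and Jak2 2 against 1, so no difference was detectable at this depth. Prlr was part of the gate.

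Some transport genes were higher. Of 10 transport genes compared, 4 were higher and 0 lower, beside 6.80% and 11.5% of all genes. The higher genes were Folr1, Clic6, the nucleoside transporter Slc28a3 (1.64-fold, 1.38 to 1.97) and the water channel Aqp5 (1.53-fold, 1.11 to 2.13). Folr1 and Clic6 are also counted with the progenitor genes above. Aqp5 was present in 21.8% of the thinned cells of each group, and was 2.11-fold higher under the strict gate. The call of Slc28a3 was lost under the strict gate, at 1.196 (0.960 to 1.49), where 3 of 9 transport genes were higher, beside 8.67% of all genes. Car2, a carbonic anhydrase, was 3.05-fold higher (2.16 to 4.37), and Cck, which encodes the peptide cholecystokinin, was 4.41-fold higher (2.69 to 7.56) and present in 36.8% against 7.02% of the cells. Among 20 genes of folding and translocation in the endoplasmic reticulum, 2 were higher, Manf (1.79-fold, 1.30 to 2.49) and Herpud1 (1.76-fold, 1.01 to 3.17), and 0 were lower, beside 6.80% higher among all genes. With the strict gate 1 of 16 was higher and 2 were lower, Manf had a fold of 1.21 and was not called, and Herpud1 had too few counts. The chaperone Hspa5 had a fold of 1.11 (0.972 to 1.26). Of 5 lipid genes, Me1 was higher, Fdps was lower, and Plin2, which coats lipid droplets, had a fold of 1.24 (1.07 to 1.43).

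For Spp1, Lalba and Btn1a1, most of the difference lay between the lowest 25% and the rest. Over the 4 groups of 170 cells, not matched for depth, Spp1 stood at 12106, 46672, 47314 and 61694 CPM. Lalba stood at 654, 1765, 1939 and 2553 CPM, and Btn1a1 at 175.8, 469.7, 590.9 and 730.7 CPM. Each of these was higher at every step, with the largest ratio at the first. Csn2 (1654, 5693, 4583 and 9796 CPM) and Hp (961.7, 1487, 935.3 and 1465 CPM) did not follow a steady order. With the upper 50% of gated cells set against the lower 50%, Hp and Car2 both had a fold of 0.969.

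**Figure D4:**
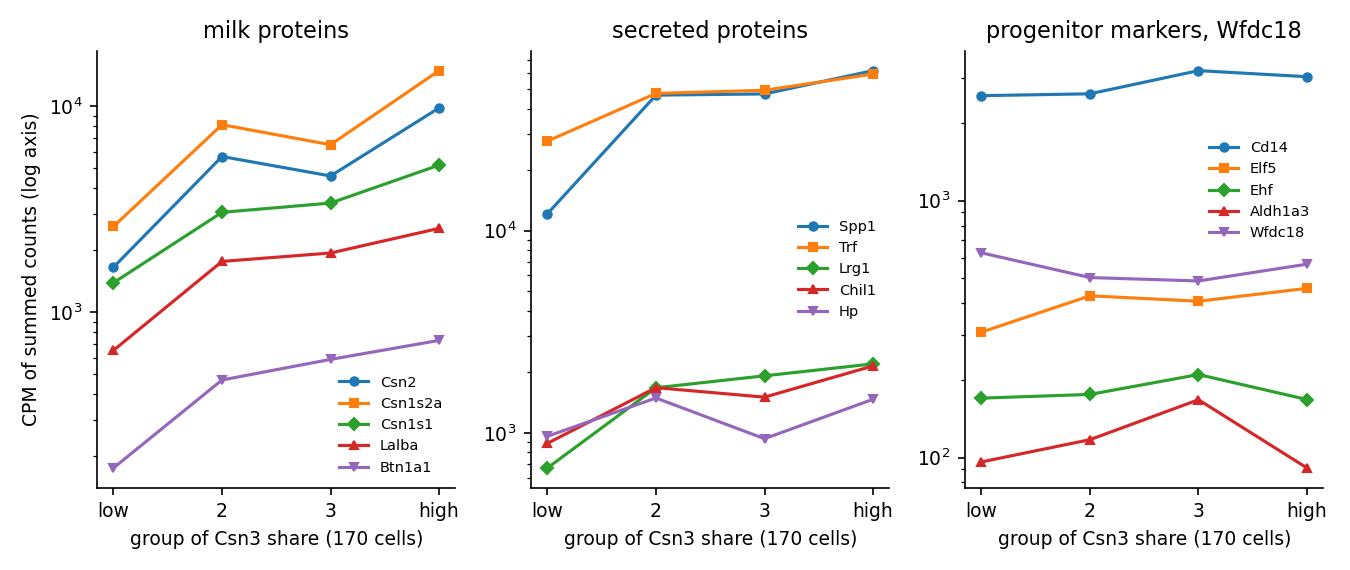
CPM of summed counts (log axis) over the 4 groups of Csn3 share, 170 cells each and unmatched, for milk proteins, secreted proteins, and progenitor markers with Wfdc18. Lalba, Btn1a1, Spp1, Trf and Lrg1 increase at every step, while Ehf, Aldh1a3 and Wfdc18 do not.

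Among the lower genes, those with the largest folds came mainly from the few Csn3-low cells with little Trf or with muscle genes. Ptn, which encodes the growth factor pleiotrophin, had 19 against 316 counts, 16.6-fold lower (10.5 to 28.0), and 87.3% of its Csn3-low counts lay in the 14 cells with fewer than 2 Trf counts. Under the strict gate it had 10 against 17 counts. The 2 muscle-gene cells held 88.9% of the Csn3-low counts of Tpm1 (tropomyosin), 65.4% of those of Aldoa, 55.1% of Gapdh, 50.5% of Slc25a4 and 27.0% of Tpi1. Aldoa, Gapdh and Tpi1 encode glycolytic enzymes and Slc25a4 the ADP/ATP carrier of mitochondria. Their folds were 0.0826, 0.432, 0.433, 0.394 and 0.461 in the order given. With those 2 cells left out and the rest ranked and matched again, the fold of Aldoa was 1.18, and under the strict gate that of Gapdh was 0.976 and that of Slc25a4 was 0.683. Tpi1 was still called lower there, with 19 against 32 counts and a fold of 0.580 (0.310 to 1.05). A single Csn3-low cell held 72.2% of the counts of Gsn, which encodes the actin-severing gelsolin, and 1 held 74.6% of those of the fibroblast gene Dcn.

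Other named lower genes held their direction in the strict gate. Tagln2, an actin-binding protein, had 58 against 133 counts and was 2.29-fold lower (1.67 to 3.17), and 2.91-fold lower under the strict gate. Lurap1l had 115 against 211 counts (1.83-fold lower, 1.45 to 2.32), with 1.42% of its Csn3-low counts in the 14 cells, and was 2.53-fold lower under the strict gate. Anxa4, an annexin, was 2.14-fold lower (1.41 to 3.29) and Psmb8, an immunoproteasome subunit, was 2.36-fold lower (1.62 to 3.49). They were 2.43-fold and 1.86-fold lower under the strict gate. Tmsb4x, which encodes the actin-binding thymosin beta-4, was 1.76-fold lower (1.46 to 2.14) and 1.46-fold lower under the strict gate.

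Of 16 keratin, junction and annexin genes compared, 7 were lower, beside 11.5% of all genes, and 0 were higher. Their median log2 fold was -0.45. Krt7 had 70 against 115 counts (0.610, 0.446 to 0.827) and Anxa5 had 59 against 93, while the tight junction genes Cldn3, Cldn4 and Cldn7 had folds of 0.896, 0.793 and 1.04. With the strict gate 4 of 11 were lower, beside 16.6% of all genes. Of Krt7 counts in Csn3-low cells, 33.0% lay in the 14 cells.

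**Figure D5:**
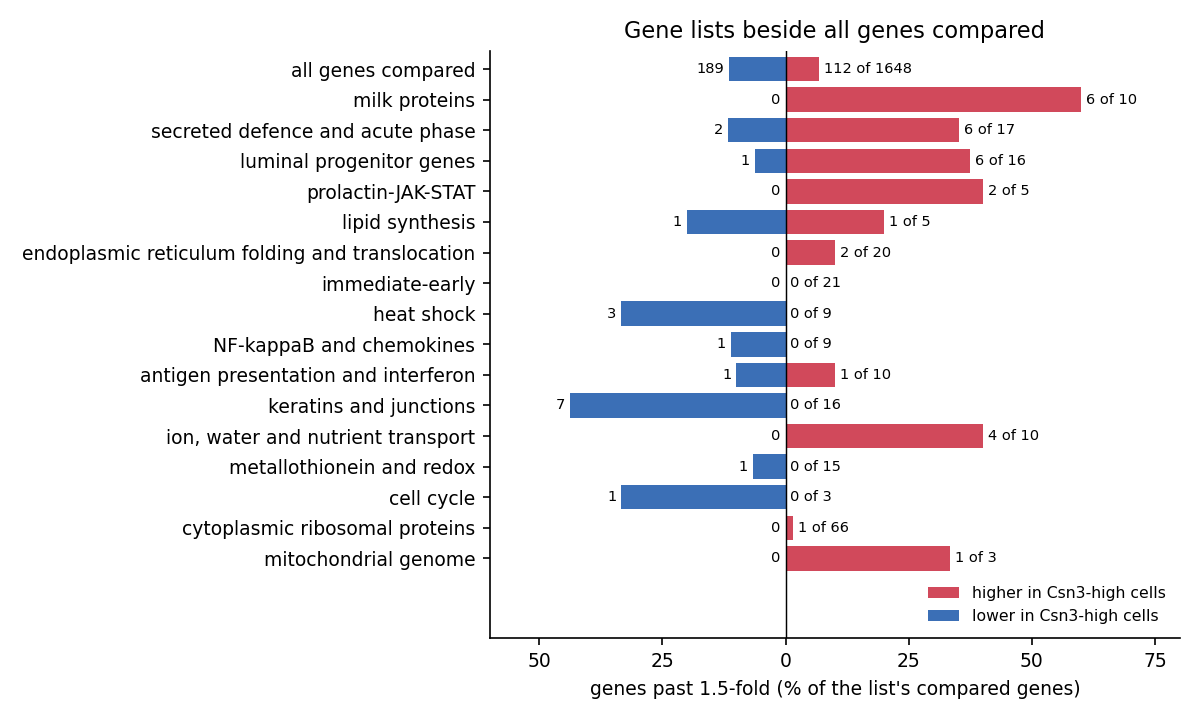
Share of each list's compared genes that were past 1.5-fold, higher to the right and lower to the left (%), with the number of genes beside each bar and all 1648 compared genes at the top. Milk proteins reach 6 of 10 higher, and the keratin and junction list, which also holds annexins, reaches 7 of 16 lower.

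The immediate-early and ribosomal lists held few called genes in all gated cells. All 21 immediate-early genes, which respond to cell dissociation, stayed within 1.5-fold, with a median log2 fold of 0.03, and so did 65 of 66 cytoplasmic ribosomal protein genes. Of 9 heat shock genes 3 were lower (Hspa1a, Hspb1 and Cryab), beside 11.5% of all genes. Of 9 NF-kappaB and chemokine genes 1 was lower (Icam1), near that share. Nfkbia and Cxcl1 had folds of 0.717 and 0.749. Under the strict gate, 5 of 21 immediate-early genes, 3 of 9 heat shock genes and 4 of 6 NF-kappaB genes were lower, as were 6 of 61 ribosomal protein genes, beside 16.6% of all genes. The median log2 fold was -0.26 for the immediate-early and -0.21 for the ribosomal list, against -0.16 for all genes. Nfkbia stood at 0.556 (0.496 to 0.622) and Cxcl1 at 0.593 (0.515 to 0.681). Under that gate 2 of 3 mitochondrial transcripts were higher, beside 8.67% of all genes. In all gated cells 1 of these 3, mt-Nd1, was higher (1.61-fold, 1.38 to 1.87). In all gated cells, 1 of 15 metallothionein and redox genes was lower. Of 10 antigen presentation genes 1 was higher and 1 was lower, and of 3 cell cycle genes 1 was lower. These counts stand beside 6.80% higher and 11.5% lower among all genes.

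Summed markers of mature luminal cells, basal cells and fibroblasts were higher in the Csn3-low group of all gated cells. Over 13 mature luminal markers the summed level was 330 CPM in Csn3-high and 725 CPM in Csn3-low cells. Under the strict gate, which limits 6 of these genes, the order was the other way, at 386 against 134 CPM. Ly6d, not among those 6, made up most of both sums, at 345 against 91.3 CPM. Of the Csn3-low counts in all gated cells, the 14 cells held 90.0% for Areg and 93.8% for Cited1. Over 14 basal markers it was 1056 against 1573 CPM, and 42161 CPM in the basal cells. The 2 muscle-gene cells held 95.6% of the Csn3-low counts of Tpm2, a member of this list. Under the strict gate, which limits basal counts, the basal sum was 838 against 956 CPM. The 6 fibroblast markers summed to 10.3 against 247 CPM, and to 23.8 against 24.4 CPM under the strict gate. In all gated cells, 4 endothelial and pericyte markers to 13.8 against 0 CPM, 6 immune markers to 0 against 3.44 CPM, and 3 adipocyte markers to 0 in both. Of 58 called genes followed singly, 40 kept their call with a stricter limit on mature luminal genes, 53 with one on basal genes, 43 with a progenitor marker required, 42 with Trf required, 50 without the muscle-gene cells and 32 under the strict gate.

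The sorted basal library, from the basal gate of the same strain, could not serve as a second sample. Only 150 of its 4771 cells passed the gate, with a median of 522 counts, 121 of them had no Csn3, and matching left 22 pairs, too few for a comparison.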

How the data were processed

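Droplet-based 3′ single-cell counts of adult FVB/NJ mouse mammary epithelium were used. The authors deposited whole-number counts of unique molecules for each gene and cell, without normalization. Cell Ranger 1.2.1 and mm10 are named in the submitters' processing notes. The main comparison used the total epithelium library (802 to 12967 counts a cell). Of the barcodes, 28 were shared with the sorted basal library, 8 of them in gated cells. No doublet caller was run.

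Counts were summed over matched cells and scaled on totals without Csn3, which was left out of the comparison together with the 9 gating genes. Genes were named by rule. A named gene had at least 100 counts and was present in at least 10% of cells of the higher group. Of these genes, the 12 in each direction whose interval bound nearest to 1 lay farthest from it were taken. List members could also be named. Members and lists were chosen with earlier results of these data known. The code was tested on simulated counts. Alternatives covered matching, thinning, gates, scaling and filters. Python 3.11.15, numpy 2.4.6, scipy 1.17.1, pandas 2.3.3, matplotlib 3.10.9 and edgeR 4.0.16 (TMM factors only) under R 4.3.3 were used.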

Additional observations from a re-analysis of the deposited data

How the results depend on the processing

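The counts of 112 higher and 189 lower genes moved most with the genes or depth available to the comparison. Thinning to 1000 counts gave 53 and 75, the shallower pairs gave 43 and 71, a minimum of 20 counts gave 348 and 678, a minimum of 100 gave 52 and 69, and a 2-fold limit gave 31 and 44. TMM scaling gave 200 and 107. Without matching there were 368 lower genes, with ranking inside 10 depth bins 339, and with the upper against the lower 50% of cells 289, each over more compared genes. The cause of the other shifts was not tested. Of 58 called genes among the 176 followed singly, 18 kept their call with the upper against the lower 50%, 22 in the shallower pairs, 30 after thinning, 32 under the strict progenitor gate and 40 to 58 under the other settings. Folds of called genes reversed in these settings only. Aldoa was at 1.127 in the shallower pairs, 1.177 without skeletal muscle RNA and 1.265 under the strict progenitor gate, where Tpm1 was at 1.013. Gapdh and H2-T23 were at 1.153 and 0.8363 in the shallower pairs, Socs3 at 0.6852 without matching, and Car2, Hp and Hspa1a at 0.9691, 0.969 and 1.216 with the upper against the lower 50%. The gates on Trf, on skeletal muscle RNA, the strict progenitor gate and the settings without top cells were chosen after seeing the data. The planned repeat in the sorted basal library was not run, since 22 pairs remained. No paired analysis was possible because both groups come from 1 library. At the median total of 2330 counts in matched Csn3-low cells, genes of the prolactin pathway such as Jak2 and Stat5b gave too few counts for a fold.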

Other observations

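A few genes outside the lists are given as single values. They were picked after their values were seen, and no count over a fixed list stands behind them. Atp6v1b1, a subunit of the proton pump, had 168 against 92 counts (1.83-fold, 1.41 to 2.38) and was present in 64.0% against 40.4% of the cells, with 1.70-fold under the strict gate. Scnn1b, a subunit of the epithelial sodium channel, had 81 against 36 counts (2.25-fold, and 2.26-fold under the strict gate) and was not seen in the basal cells. Cst3, which encodes the secreted protease inhibitor cystatin C, had 1700 against 912 counts (1.87-fold, 1.72 to 2.02), and 1.67-fold under the strict gate. The lysosomal genes Gm2a and Lipa were 3.05-fold and 1.87-fold higher, and 2.29-fold and 1.72-fold higher under the strict gate. The transcriptional inhibitors Id1 and Id2 had 100 against 36 and 96 against 44 counts, 2.78-fold (1.88 to 4.19) and 2.18-fold (1.51 to 3.20) higher, and both stood at 2.025-fold under the strict gate.

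Some genes were called only under the strict gate. Ly6d, from the mature luminal list, had 82 against 91 counts in all gated cells and 58 against 15 under the strict gate (3.78-fold, 2.11 to 7.17). Of its Csn3-low counts in all gated cells, 73.6% lay in the 14 cells with fewer than 2 Trf counts. Tnfrsf12a, a receptor of the tumour necrosis factor family, had a fold of 0.687 in all gated cells and of 0.549 (0.440 to 0.683) under the strict gate, and Fcgbp, a mucus protein, had 0.689 and 0.542 (0.421 to 0.695).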
